A study of Triticum aestivum with 18 samples.

Results

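The enzymes that build starch were followed in flag leaves and grains of bread wheat (Triticum aestivum). The loci were taken by their description in the deposited gene table: starch synthase, starch branching enzyme, 1,4-alpha-glucan-branching enzyme, glucose-1-phosphate adenylyltransferase or isoamylase. This gave 41 of 115478 loci, of which 12901 carried any description. They comprised 12 loci of glucose-1-phosphate adenylyltransferase (ADP-glucose pyrophosphorylase), 16 starch synthases that are soluble or not classed further, 3 granule-bound starch synthases, 5 branching enzymes and 5 isoamylases.

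Poly(A) RNA was sequenced from 18 libraries in 6 groups of 3, all at the grain filling stage. The 3 flag leaf groups were removal of the whole spike, removal of 0.5 of the spike, and an untreated control. Grains came from plants whose spikes were shaded and whose leaves were all removed, from spikes after 0.5 of the spike was taken off, and from untreated controls. Shading and defoliation came together, so their effects cannot be told apart, and a sham cut is not among the groups. The cultivar is not given in the sources used here, and the labels do not tell if the replicates are different plants. The p-values therefore reflect the spread between these libraries alone, which may be technical.

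Starch is made inside plastids. ADP-glucose pyrophosphorylase, an enzyme of large and small subunits, makes the sugar donor ADP-glucose and is the main point of control of the pathway. Starch synthases extend the glucan chains: the granule-bound form makes amylose, and the soluble forms make the chains of amylopectin. Branching enzymes introduce the branch points, and isoamylase 1 trims misplaced branches so that the polymer can crystallise. Isoamylase 3 is known in Arabidopsis mainly for starch breakdown. Leaves hold starch made by day and broken down by night, whereas the wheat endosperm stores it for the seedling.

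FPKM is a level per length of transcript and per mapped fragments. It was scaled between the libraries of a fit by the median ratio of loci, and all group values below are scaled FPKM as mean ± SD with n = 3 unless stated. A locus was tested with limma where its FPKM reached 1 in at least 3 libraries of the fit. A call means an adjusted p under 0.05, by the Benjamini-Hochberg method over all loci tested. Changes are differences of log2(scaled FPKM + 1) with their SE, which understate the change of low loci. The filter passed 31 starch synthesis loci in leaf and 35 in grain, of which 27 passed in both tissues, 4 in leaf only and 8 in grain only. A further 2 loci passed in neither (MSTRG.74661 on 7DS and TRIAE_CS42_7AS_TGACv1_569190_AA1809640 on 7AS), and neither reached 1 scaled FPKM in any group of the leaf or grain fit. Chromosome arms are read from the gene names, and since reads from the A, B and D genome copies are hard to separate, the value of a single copy is uncertain.

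The shaded grain library 2 stood apart, with 89.9% of its FPKM on loci without a gene name and 12276 loci at an FPKM of 1 or more, against at least 36709 loci in each of the other 17 libraries. Control grain library 1 had 55.4% of its FPKM on such loci. The relative depth of all libraries, read from values under an FPKM of 0.1, lay between 0.815 and 1.06 of control leaf library 1. Only 5.37% to 7.54% of these low values lay near the ratio used. Scaling divided shaded grain library 2 by 0.228, against 0.922 to 1.40 for the remaining grain libraries. Its scaled values therefore stand well above its FPKM. In leaf, scaling divided the control libraries by 1.14 to 1.16 and the treated libraries by 0.837 to 1.05. Of 17 loci of gliadins and glutenins, storage proteins that mark starchy endosperm, 13 were above 0 in control leaf. Their summed scaled FPKM there was 0 in library 1, 32.8 in library 2 and 50.8 in library 3. A low molecular weight glutenin locus of this list, MSTRG.6678 (1BS), was at 0 in all 9 grain libraries and at 0, 3.44 and 5.12 in control leaf, so it does not mark endosperm here. Without it, chosen after seeing the values, 12 of 16 loci were above 0 in control leaf and the sums were 0, 29.3 and 45.7. The same sum was at most 0.0138 in leaves after whole removal and 0 in every leaf library after removal of 0.5 of the spike. Of 78 loci of chlorophyll-binding proteins and the Rubisco small chain, 46 were tested between the control tissues and all 46 were higher in leaf, as the tissue labels say.

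In several enzyme classes some loci stood higher in control leaf, others in control grain, and others were not called between them (the plot of control leaf against control grain levels). Of 37 loci tested, 9 were higher and 15 lower in control leaf than in control grain, together 64.9%, against 70.8% of all tested loci (35.6% higher and 35.2% lower). The share is near that of all loci. The groups did not overlap for 9 higher (24.3%) and 18 lower loci (48.6%), against 37.9% and 37.6% of all tested loci. Without scaling 14 were higher and 14 lower, and without control leaf libraries 2 and 3 the counts were 6 and 14 of 31. Without control grain library 1 in all 14 of 31 loci were called. Of the 24 called, 4 of the 9 higher and 6 of the 15 lower reached an FPKM of 1 in 1 tissue only, so the filter fixed their direction and their differences are a description. These 10 are MSTRG.53071, MSTRG.47469, MSTRG.45105 and MSTRG.68586 in leaf, and MSTRG.43850, MSTRG.3852, MSTRG.73927, MSTRG.66492, MSTRG.64878 and MSTRG.18700 in grain. The division ran within enzyme classes. ADP-glucose pyrophosphorylase held 4 sets of 3 loci, each with a locus on an A, a B and a D chromosome arm. They split into a leaf set, grain sets and a shared set.

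**Figure D1:**
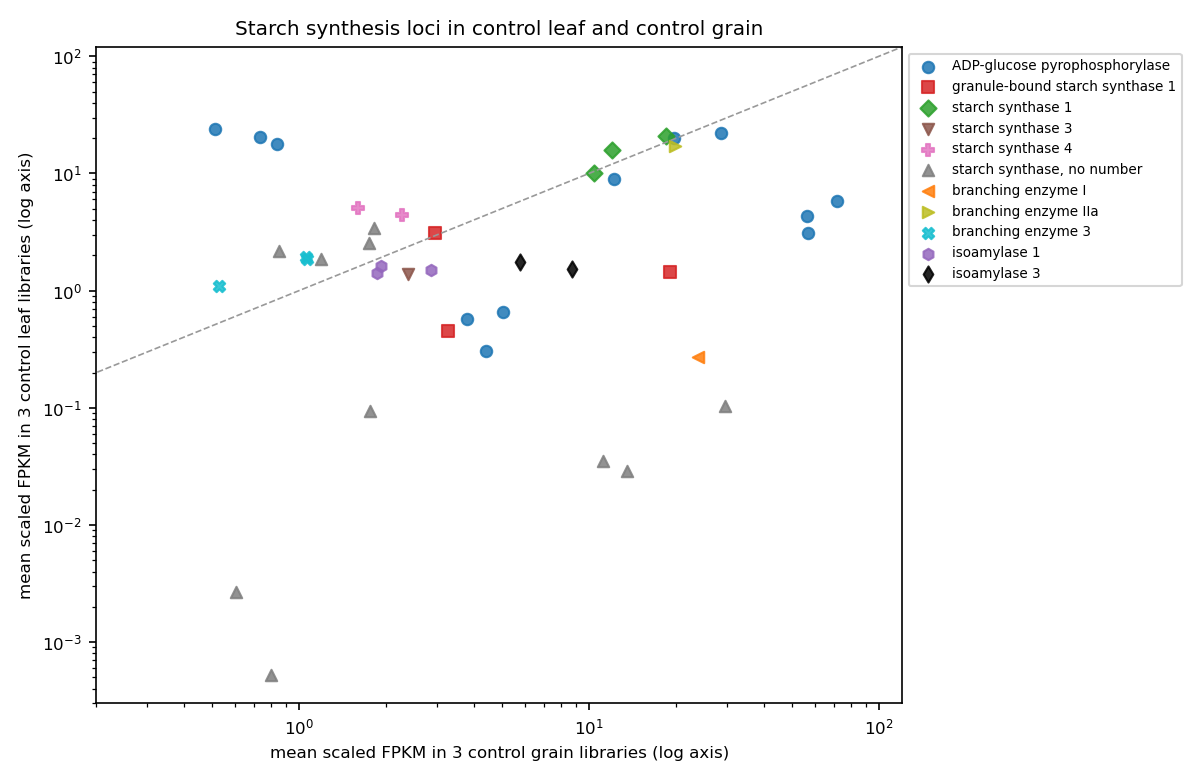
Mean scaled FPKM of the 41 starch synthesis loci in 3 control leaf libraries (vertical log axis) and 3 control grain libraries (horizontal log axis), by enzyme class, with the dashed line marking equal levels. The leaf trio of ADP-glucose pyrophosphorylase lies at upper left, the grain trio on chromosome arms 1L at far right, and starch synthase 1 on the line.

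On the long arms of group 5, one trio stood high in leaf. MSTRG.53071 (5DL) had 24.2, 24.8 and 22.5 scaled FPKM in the 3 control leaf libraries, against 0.490, 0.439 and 0.605 in control grain (log2 difference 4.04 ± 0.11). This was the most abundant ADP-glucose pyrophosphorylase of leaf over all 9 leaf libraries. MSTRG.47469 (5BL, 3.63 ± 0.12) and MSTRG.45105 (5AL, 3.36 ± 0.11) lay beside it.

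The other trio on the same arms went the other way at low levels. MSTRG.53489 (5DL) averaged 0.655 ± 0.312 in control leaf and 5.04 ± 0.344 in control grain (log2 -1.88 ± 0.16). MSTRG.43850 (5AL, -2.05 ± 0.12) and MSTRG.49958 (5BL, -1.63 ± 0.18) were likewise lower in leaf. The 2 trios of group 5 were told apart by these levels, so their split is a description.

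The loci on the long arms of group 1 were the main forms of grain. MSTRG.934 (1AL), the most abundant in grain, had 3.86, 3.48 and 10.1 scaled FPKM in control leaf, against 82.8, 62.2 and 69.6 in control grain (log2 -3.53 ± 0.35). AGP-L (MSTRG.8933, 1DL), whose description names it as a large subunit, differed by -3.50 ± 0.29, and MSTRG.4781 (1BL) by -3.86 ± 0.26. Control leaf library 3, with the highest endosperm marker sum, also had the highest values of all 3 loci in leaf. Without control leaf libraries 2 and 3, all 3 loci were still called lower in leaf. The trio on 7AS, 7BS and 7DS was shared: MSTRG.74096 (7DS) averaged 21.9 ± 2.61 in control leaf and 28.4 ± 5.66 in control grain (adjusted p = 0.128), and the other 2 were not called either.

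Among the starch synthases, the loci without a number in their description included loci near 0 in leaf and loci called higher in leaf. MSTRG.3852 (1BL), the most abundant of them in grain, had 0, 0.120 and 0.189 scaled FPKM in control leaf, against 40.7, 27.8 and 20.0 in control grain. It was listed at 0 in all 6 leaf libraries of the treated plants and in control leaf library 1, and its only leaf values came from the 2 libraries that held endosperm markers. MSTRG.73927 (7DS) averaged 0.0291 ± 0.0431 in control leaf and 13.6 ± 4.54 in control grain, and MSTRG.66492 (7AS) 0.0352 ± 0.0456 in control leaf and 11.2 ± 5.44 in control grain. These 3 are the loci of the unnumbered set whose annotation also holds the term ADP binding, and their log2 differences were -4.74 ± 0.24, -3.77 ± 0.23 and -3.45 ± 0.34. None of the 3 reached an FPKM of 1 in a leaf library, so they entered the fit through control grain alone and had to differ this way. MSTRG.517 and MSTRG.212, both on 1AL, were higher in leaf by 0.64 ± 0.13 and 0.78 ± 0.23, the second lost without control grain library 1 (adjusted p = 0.0922).

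Probable starch synthase 4, which in Arabidopsis starts starch granules, was higher in leaf, with 5.03 ± 0.401 in control leaf and 1.60 ± 0.259 in control grain for MSTRG.8251 (1DL, log2 1.21 ± 0.13). The other copy, MSTRG.4356 (1BL), was higher by 0.72 ± 0.17 and was lost without control grain library 1 or 2. Starch synthase 1, which makes short amylopectin chains, was not called between the tissues: MSTRG.70713 (7BS, gene name WSSI-2) averaged 21.0 ± 5.55 in control leaf and 18.4 ± 3.33 in control grain (log2 0.16 ± 0.23, adjusted p = 0.554).

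Branching enzymes are described by form. Starch branching enzyme I (MSTRG.64878, 7AL) had 0.178, 0.214 and 0.416 scaled FPKM in control leaf, against 34.2, 14.5 and 22.3 in control grain (log2 -4.21 ± 0.28). It entered the fit through control grain alone, so the filter fixed its direction and the difference is a description. Starch branching enzyme IIa (MSTRG.11210, 2AL) was abundant in both, with 17.2 ± 4.18 in control leaf and 19.9 ± 2.82 in control grain (log2 -0.22 ± 0.21, adjusted p = 0.392). The low branching enzyme 3 loci MSTRG.65098 (7AL) and MSTRG.68586 (7BL) were higher in leaf by 0.47 ± 0.14 and 0.50 ± 0.15, and both calls were lost without any 1 of the 3 control grain libraries. Both isoamylase 3 loci were lower in leaf: MSTRG.45152 (5AL) averaged 1.53 ± 0.170 in control leaf and 8.77 ± 0.830 in control grain (log2 -1.95 ± 0.12), and MSTRG.49230 (5BL) differed by -1.29 ± 0.13. Of the isoamylase 1 loci MSTRG.70310 (7BS) alone was called, at -0.62 ± 0.11, and this was lost without scaling, without control leaf library 1 or 2, and without libraries 2 and 3 together.

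Granule-bound starch synthase 1 showed a change of leading copy between the tissues. The 3 loci lie on 2AL, 2BL and 2DL. In wheat the enzyme of the endosperm granule is known to be encoded by the Waxy genes, which lie on other chromosome arms. Of the summed FPKM of the 3 loci, the 2BL copy (MSTRG.16345) held 69.1%, 57.6% and 58.0% in control leaf, against 13.0%, 9.63% and 12.2% in control grain. The 2AL copy (MSTRG.10613) held 29.4% ± 6.03 in control leaf and 75.5% ± 2.62 in control grain. The leading copy of each tissue was the same in every treated library. The 2BL copy led in all leaf groups, at 66.6% ± 1.68 after whole removal and 65.6% ± 2.27 after removal of 0.5 of the spike. The 2AL copy led in all grain groups, at 78.0% ± 1.01 after shading with defoliation and 75.7% ± 0.447 after removal of 0.5 of the spike. The level of the 2AL copy was lower in control leaf (1.45 ± 0.189) than in control grain (19.0 ± 2.18, log2 -3.03 ± 0.13), as was that of the 2DL copy (MSTRG.18700, -1.55 ± 0.14). For the 2DL copy the filter fixed this direction. The level of the 2BL copy did not pass the test (3.11 ± 0.710 in control leaf and 2.94 ± 0.675 in control grain, log2 0.06 ± 0.19).

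**Figure D2:**
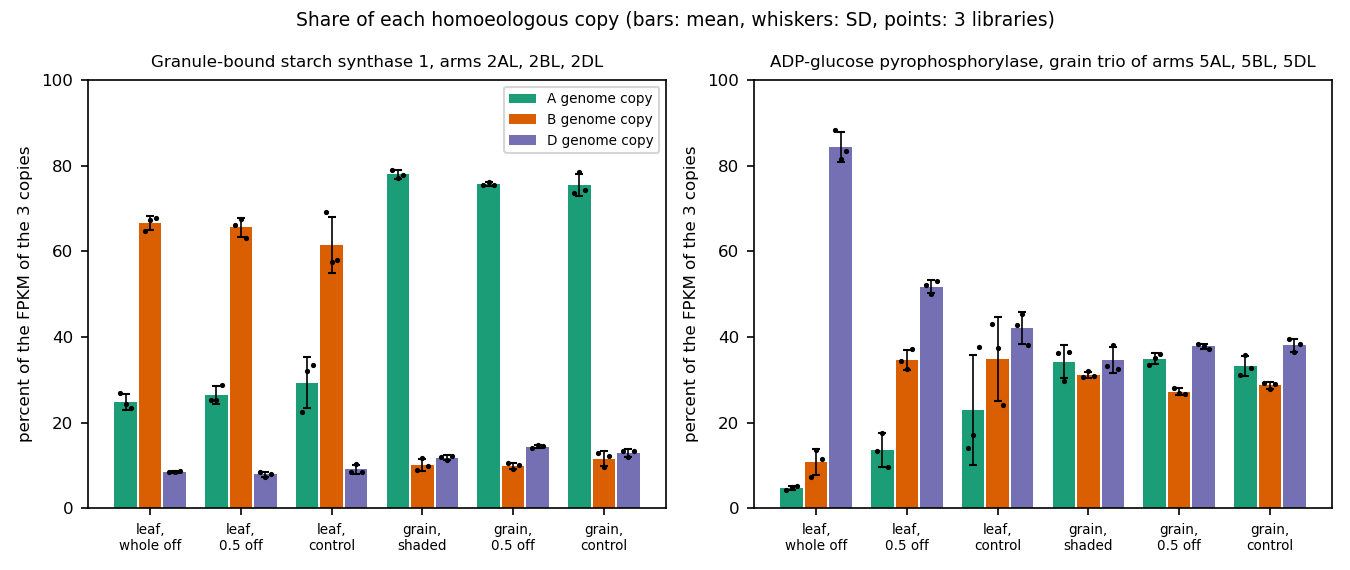
Percent of the summed FPKM of 3 copies held by the A, B and D genome copy in each of the 6 groups, for granule-bound starch synthase 1 (left) and the group 5 trio of ADP-glucose pyrophosphorylase that stood higher in grain (right). The 2BL copy of granule-bound starch synthase 1 leads in the 3 leaf groups and the 2AL copy in the 3 grain groups, and the 5DL copy of the other trio holds 84.4% ± 3.50 in leaves after whole removal.

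In flag leaves whose whole spike was taken off, isoamylase 1, branching enzyme IIa, starch synthase 3 and single copies of granule-bound starch synthase 1 and ADP-glucose pyrophosphorylase rose. The main leaf forms of ADP-glucose pyrophosphorylase and starch synthase 1 did not pass the test. Of 31 loci tested, 7 were higher and 2 lower than in control, together 29.0%, against 20.3% of all tested loci (10.8% higher and 9.50% lower). Without control leaf libraries 2 and 3, a single control library remains and is assumed to vary like the other groups. The median log2 change of the 31 loci was then 0.01, against 0.21 with all control libraries. Of the 49 tested loci of chlorophyll-binding proteins and the Rubisco small chain 6 were higher after whole removal, with a summed scaled FPKM of 3218 to 8086 after whole removal and 1470 to 3999 in control. The part of these markers in the result was not tested.

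All 3 copies of isoamylase 1 rose. MSTRG.66763 (7AS) had 9.33, 10.0 and 12.1 scaled FPKM after whole removal, against 1.93, 1.78 and 1.33 in control leaves (log2 2.10 ± 0.17, limma adjusted p = 0.000178). MSTRG.74041 (7DS) had 7.28, 8.38 and 6.87 after whole removal, against 1.54, 1.81 and 1.10 in control (log2 1.78 ± 0.16). MSTRG.70310 (7BS) had 5.33, 6.24 and 5.45 after whole removal, against 1.60, 1.44 and 1.69 in control (log2 1.37 ± 0.18). The lowest treated library stood above the highest control for each copy. Isoamylase 3 did not pass the test (MSTRG.45152, log2 -0.20 ± 0.12, adjusted p = 0.269). Within libraries, MSTRG.66763 stood at 6.02, 8.45 and 11.4 times the FPKM of MSTRG.45152 after whole removal, against 1.08, 1.14 and 0.920 times in control, a ratio that no scaling affects and that was chosen after the values were seen.

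Starch branching enzyme IIa (MSTRG.11210, 2AL), the most abundant branching enzyme of leaf, had 57.2, 58.0 and 54.7 scaled FPKM after whole removal, against 19.3, 21.6 and 13.2 in control (log2 1.63 ± 0.19, adjusted p = 0.000917). Its ratio to starch synthase 1 (MSTRG.70713), also chosen after seeing the values, was 1.73, 2.00 and 2.63 after whole removal, against 0.722, 0.906 and 0.845 in control. The 5 branching enzymes together held 21.2% ± 1.89 of the summed FPKM of the 41 loci after whole removal and 9.62% ± 1.56 in control. Branching enzyme 3 was not called: the copy nearest to the threshold, MSTRG.71915 (7DL), averaged 2.34 ± 0.592 after whole removal and 1.15 ± 0.306 in control (adjusted p = 0.0508).

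Starch synthase 3 (MSTRG.19984, 2DL), which makes long amylopectin chains, had 4.16, 4.46 and 2.87 scaled FPKM after whole removal, against 1.79, 1.67 and 0.871 in control (log2 0.99 ± 0.19, adjusted p = 0.00770). The 2BL copy of granule-bound starch synthase 1 (MSTRG.16345) had 9.25, 5.72 and 6.19 after whole removal, against 4.06, 3.08 and 2.62 in control (log2 0.91 ± 0.19, adjusted p = 0.0112). The groups did not overlap for either locus. Both calls were lost with control leaf library 1 as the only control, at 0.76 ± 0.23 (adjusted p = 0.0953) for MSTRG.19984 and 0.63 ± 0.27 (adjusted p = 0.197) for MSTRG.16345. The most abundant starch synthase of leaf, MSTRG.70713, averaged 27.6 ± 6.28 after whole removal and 22.0 ± 5.76 in control (adjusted p = 0.369).

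Among the 12 loci of ADP-glucose pyrophosphorylase, 10 were tested in leaf, 1 rose and 2 fell after whole removal. MSTRG.53489 (5DL), of the trio that stood higher in grain, rose to 2.59, 4.20 and 3.69 scaled FPKM after whole removal, against 1.02, 0.671 and 0.367 in control (log2 1.42 ± 0.22, adjusted p = 0.00339). It then held 84.4% ± 3.50 of its trio after whole removal and 42.1% ± 3.67 in control, while the 5AL and 5BL copies stayed under the filter in leaf. This call too was lost with control leaf library 1 as the only control (1.12 ± 0.31, adjusted p = 0.0717). The leaf trio did not pass the test, and MSTRG.53071 averaged 24.8 ± 7.71 after whole removal and 25 ± 1.21 in control (log2 -0.05 ± 0.21).

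The 2 loci that fell were of the grain trio on arms 1L. AGP-L (MSTRG.8933, 1DL) had 1.41, 1.92 and 1.90 scaled FPKM after whole removal, against 3.21, 3.10 and 7.40 in control (log2 -0.94 ± 0.26, adjusted p = 0.0355). MSTRG.4781 (1BL) had 0.493, 1.47 and 1.28 after whole removal, against 2.15, 2.57 and 5.06 in control (log2 -1.01 ± 0.27, adjusted p = 0.0305). Control leaf library 3 was highest for both and also held the highest endosperm marker sum of the leaf libraries. The part of these markers in the fall was not tested. Each call was lost under 6 of 17 alternatives, with adjusted p up to 0.131 for MSTRG.8933 and 0.248 for MSTRG.4781, among them leaving out control leaf library 3 for MSTRG.4781 (-0.72 ± 0.23, adjusted p = 0.0577).

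**Figure D3:**
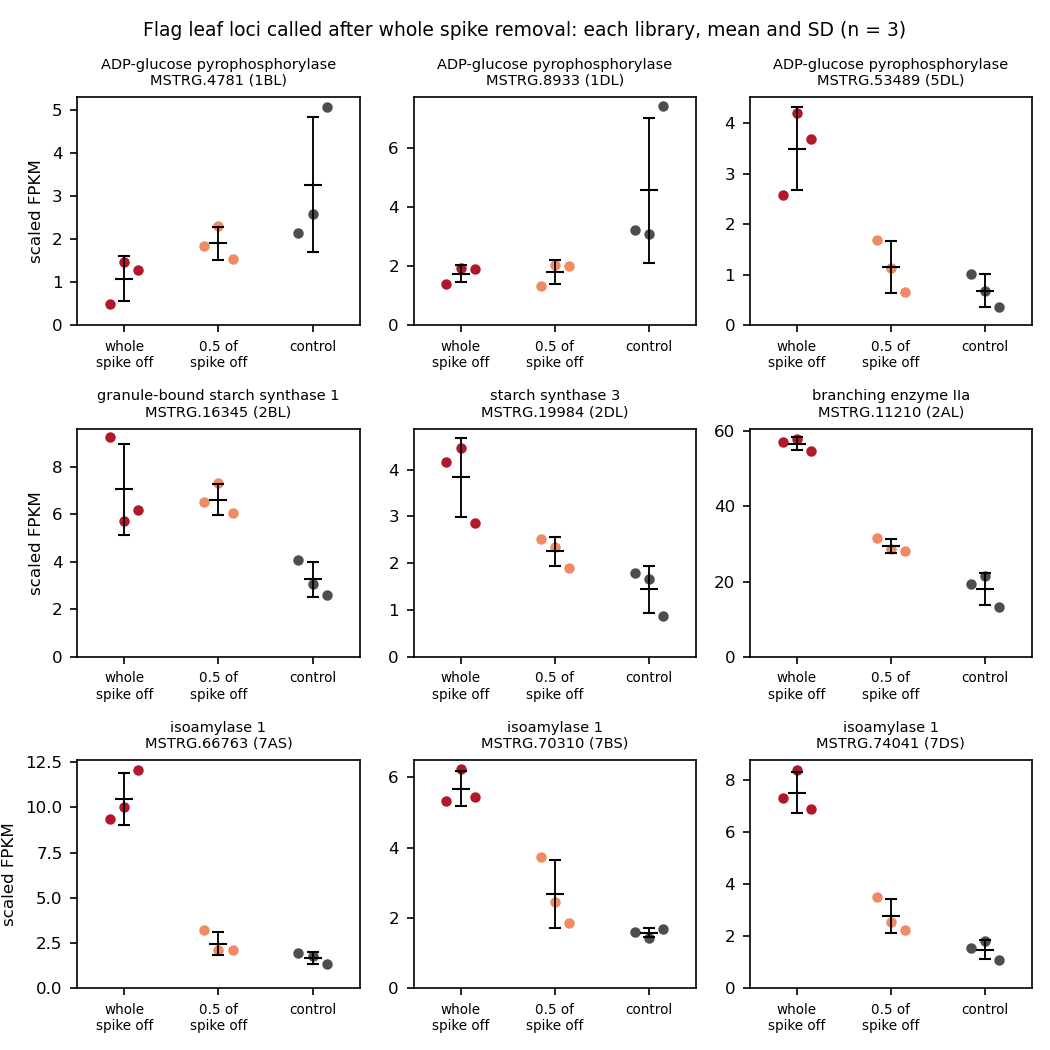
Scaled FPKM of the 9 loci called in flag leaves after whole spike removal, in each library of 3 groups (points), with mean and SD (n = 3). In the isoamylase 1 and branching enzyme IIa panels the leaves after removal of 0.5 of the spike lie between the other groups, above all control libraries and below all libraries after whole removal. The panels were chosen by their call between whole removal and control, so these positions are a description.

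After removal of 0.5 of the spike, no starch synthesis locus was called in leaf at this number of libraries. Of 31 loci tested, 0 passed in limma (9 had an unadjusted p under 0.05), against 1.63% of all tested loci (1.09% higher and 0.536% lower). With sample weights 6 were called higher and 1 lower. The 3 libraries of this group lay wholly above control for 17 loci (54.8%) and wholly below for 2 (6.45%), whereas over all tested loci the shares were 9.93% and 11.1%. The smallest adjusted p was 0.0764, for granule-bound starch synthase 1 MSTRG.16345, which had 6.51, 7.30 and 6.03 scaled FPKM after removal of 0.5 of the spike, against 4.06, 3.08 and 2.62 in control (log2 0.85 ± 0.19). Branching enzyme IIa (MSTRG.11210) had 31.6, 28.6 and 28.3 after removal of 0.5 of the spike, against 19.3, 21.6 and 13.2 in control (log2 0.71 ± 0.19, adjusted p = 0.142). The median log2 difference of the 31 loci was 0.27, against -0.00 over all tested loci. Without scaling the medians were 0.02 for the 31 loci and -0.23 for all loci. The number of the 31 loci with a log2 difference above 0 was 25 with scaling and 16 without it, so these positions depend on the scaling. The comparisons of whole removal and of removal of 0.5 of the spike with control share the control libraries.

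Between the 2 extents of removal, the 3 copies of isoamylase 1, branching enzyme IIa and the 5DL copy of ADP-glucose pyrophosphorylase were higher after whole removal. These 5 were higher and 0 lower among 31 loci (16.1%), against 16.5% of all tested loci (8.57% higher and 7.95% lower). The share called is near that of all loci. The groups did not overlap for 6 higher (19.4%) and 9 lower loci (29.0%), against 19.6% and 19.7% of all tested loci. MSTRG.66763 had 9.33, 10.0 and 12.1 scaled FPKM after whole removal, against 3.21, 2.11 and 2.10 after removal of 0.5 of the spike (log2 1.73 ± 0.17, adjusted p = 0.000487). MSTRG.74041 (1.19 ± 0.16), MSTRG.70310 (0.89 ± 0.18), MSTRG.53489 (1.07 ± 0.22) and MSTRG.11210 (0.92 ± 0.19) followed. MSTRG.11210 was lost without library 2 of the group with 0.5 of the spike off (adjusted p = 0.0509) and MSTRG.53489 without whole removal library 2 (adjusted p = 0.0534). Granule-bound starch synthase 1 MSTRG.16345 was not called, at 7.05 ± 1.92 after whole removal and 6.61 ± 0.642 after removal of 0.5 of the spike (log2 0.06 ± 0.19). With scaling over loci with a description, 5 loci were higher and 4 lower, and without whole removal library 1 in all 8 loci were called.

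In grain of shaded and defoliated plants, some starch synthase loci and branching enzyme I were lower than in control grain. Some of the called loci are low in leaf and others are abundant there. Of 35 loci tested, 0 were higher and 7 lower (20.0%), against 1.82% of all tested loci (0.325% higher and 1.50% lower). The loci did not all move 1 way: 15 log2 changes were above 0 and 20 below. The shaded libraries lay wholly above control for 8 loci (22.9%) and wholly below for 13 (37.1%). Both shares exceeded those of all 45784 tested loci, of which 4595 lay wholly above and 5045 wholly below. The 3 ADP-binding starch synthases, branching enzyme I, 1 copy of starch synthase 1, 1 of ADP-glucose pyrophosphorylase and 1 of isoamylase 1 fell. In whole grains, fewer endosperm cells and less RNA per cell cannot be told apart. The endosperm markers moved the same way: 15 of the 17 loci were tested, 3 fell, and their summed scaled FPKM was 751 to 1849 in shaded grain and 4770 to 6814 in control grain, with 4 loci at 0 in shaded grain and 1 in control grain. Of 10 embryo and aleurone markers, the 2 late embryogenesis abundant loci stood higher in leaf than in grain, so they do not mark grain here. One of them, MSTRG.37999 (4BL), had a mean unscaled FPKM of 30.1 in leaf and 0.243 in grain. The sum of the 10 markers ranged from 447 to 697 in shaded grain and from 504 to 985 in control grain. In limma 0 of 8 tested markers were called (median log2 0.14). The part of these in the result was not tested. Without shaded grain library 2 and control grain library 1, 2 of 33 loci were called, both lower, and without scaling 4 of 35, all lower. The count was 2 without shaded grain library 3, and 4 without shaded grain library 2, control grain library 1, control grain library 2 or library 1 of the grains after removal of 0.5 of the spike.

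Starch synthase MSTRG.3852 (1BL) had 3.32, 0.798 and 1.78 scaled FPKM in shaded grain, against 32.0, 21.3 and 15.3 in control grain (log2 -3.04 ± 0.35, limma adjusted p = 0.00764). The groups were far apart, and it was called under all 17 alternatives. MSTRG.73927 (7DS) had 2.10, 0.247 and 0.513 in shaded grain, against 14.1, 10.7 and 6.76 in control grain (log2 -2.62 ± 0.36, adjusted p = 0.0126). It was lost only without both shaded grain library 2 and control grain library 1 (-2.26 ± 0.40, adjusted p = 0.0711). MSTRG.66492 (7AS) had 2.42, 0.164 and 0.683 in shaded grain, against 12.6, 9.45 and 4.07 in control grain (log2 -2.25 ± 0.44, adjusted p = 0.0424), a call kept under 6 of 17 alternatives. In the 3 loci, shaded grain library 1 was the highest of its group and control grain library 3 the lowest.

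The ratio of MSTRG.3852 to the most abundant granule-bound starch synthase 1 of grain, MSTRG.10613, chosen after seeing the values, was 0.201, 0.0424 and 0.0986 in shaded grain, 0.747, 0.510 and 0.931 after removal of 0.5 of the spike, and 2.32, 1.55 and 0.930 in control grain. MSTRG.10613 itself averaged 17.8 ± 1.15 in shaded grain and 14.7 ± 1.53 in control grain (log2 0.26 ± 0.11, adjusted p = 0.286). The copy of starch synthase 1 with the highest level, MSTRG.70713 (7BS), had 6.58, 7.51 and 6.78 in shaded grain, against 17.5, 12.5 and 12.8 in control grain (log2 -0.93 ± 0.14, adjusted p = 0.0197). It was lost under 5 of 17 alternatives, with adjusted p up to 0.680 without scaling. Starch synthase 4 lay above control in all 3 shaded libraries without being called (MSTRG.8251, 2.00 ± 0.170 in shaded grain and 1.24 ± 0.193 in control grain, adjusted p = 0.105).

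Starch branching enzyme I (MSTRG.64878, 7AL) fell, with 4.65, 2.29 and 3.51 scaled FPKM in shaded grain, against 26.9, 11.1 and 17.1 in control grain (log2 -2.06 ± 0.30, adjusted p = 0.0148). It was lost only without shaded grain library 3 (adjusted p = 0.0522). Branching enzyme IIa (MSTRG.11210) averaged 15.4 ± 2.73 in shaded grain and 15.4 ± 2.36 in control grain (log2 -0.00 ± 0.16). The ratio of form I to form IIa, chosen after seeing the values, was 0.252, 0.169 and 0.250 in shaded grain, 0.402, 0.388 and 0.480 after removal of 0.5 of the spike, and 1.56, 0.690 and 1.34 in control grain. No library of either treatment reached the lowest control value.

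The 2 remaining calls lay at the edge of the threshold. ADP-glucose pyrophosphorylase MSTRG.74096 (7DS) had 13.2, 12 and 12.6 in shaded grain, against 27.5, 18.6 and 20.0 in control grain (log2 -0.74 ± 0.15, adjusted p = 0.0496). Isoamylase 1 MSTRG.74041 (7DS) had 0.761, 0.421 and 0.720 in shaded grain, against 1.48, 1.33 and 1.50 in control grain (log2 -0.58 ± 0.12, adjusted p = 0.0471). Neither was called under any of the 17 alternatives, although the groups did not overlap. The main grain form of ADP-glucose pyrophosphorylase, MSTRG.934 (1AL), had 41.0, 24.2 and 26.3 in shaded grain, against 65.2, 47.8 and 53.3 in control grain (log2 -0.87 ± 0.21, adjusted p = 0.0930). AGP-L (MSTRG.8933) had 44.9, 16.8 and 17.6 in shaded grain, against 41.4, 39.1 and 50.6 in control grain, so shaded library 1 lay within the control range (adjusted p = 0.261). The most abundant isoamylase of grain, isoamylase 3 MSTRG.45152 (5AL), averaged 8.53 ± 0.754 in shaded grain and 6.78 ± 0.582 in control grain (adjusted p = 0.199).

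**Figure D4:**
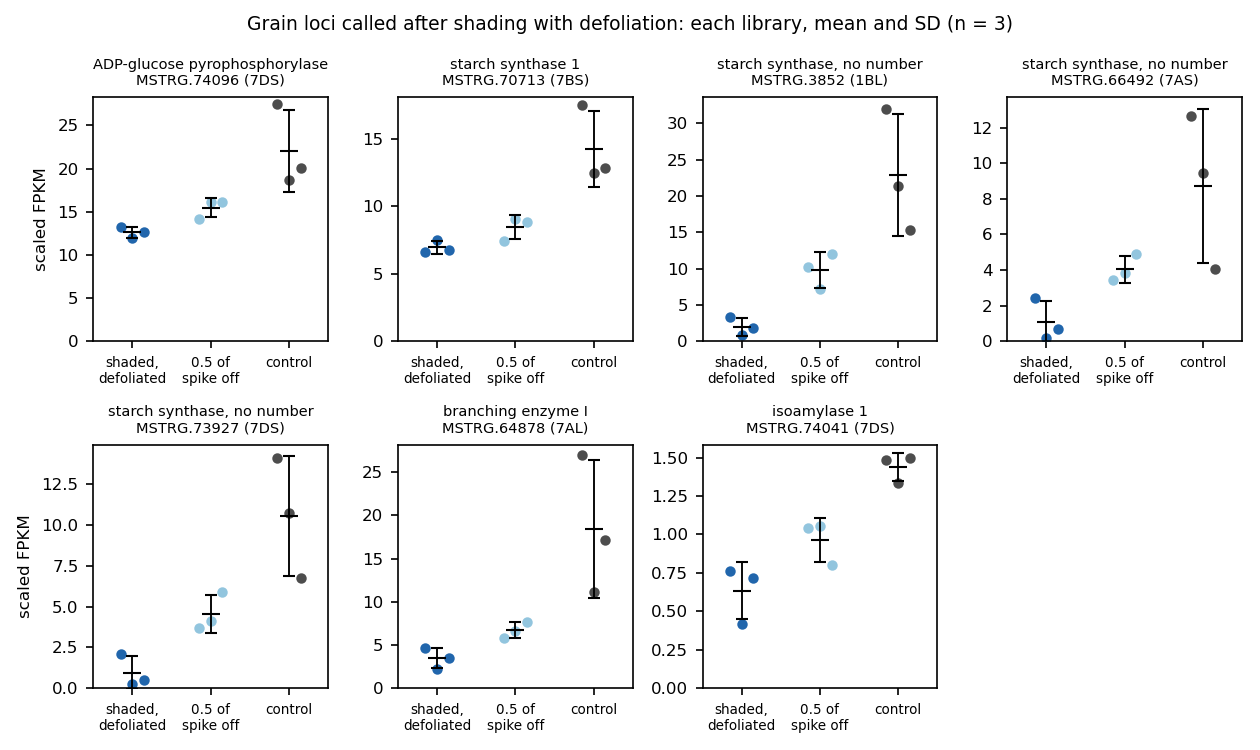
Scaled FPKM of the 7 loci called in grain of shaded and defoliated plants, in each library of 3 groups (points), with mean and SD (n = 3). All shaded libraries lie below all control libraries in each panel, and the grains after removal of 0.5 of the spike have intermediate means. The panels were chosen by their call between shaded and control grain, so these positions are a description.

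In grain after removal of 0.5 of the spike, 0 of 35 loci were called in limma (14 had an unadjusted p under 0.05), against 0.0284% of all tested loci (0.00655% higher and 0.0218% lower). The smallest adjusted p was 0.268, for MSTRG.70713. The libraries lay wholly below control for 15 loci (42.9%) and wholly above for 0, whereas over all tested loci the shares were 7.20% and 5.80%. Those 15 included all 3 copies of starch synthase 1, all 3 of isoamylase 1 and both the arms 1L and the arms 7S trio of ADP-glucose pyrophosphorylase. These positions depend on the scaling, which divided this group by 1.28 to 1.40 and control grain by 0.922 to 1.26. Without scaling 0 of the 35 loci had an unadjusted p under 0.05 in limma. Their median log2 difference was then -0.06, with 16 above 0, against -0.25 with scaling, with 11 above 0. The median of all tested loci was 0.18 without scaling. MSTRG.934 (1AL) had 27.2, 32.4 and 30.3 scaled FPKM after removal of 0.5 of the spike, against 65.2, 47.8 and 53.3 in control grain (log2 -0.86 ± 0.21, adjusted p = 0.381). Branching enzyme I (MSTRG.64878) had 5.84, 6.67 and 7.65 after removal of 0.5 of the spike, against 26.9, 11.1 and 17.1 in control grain (log2 -1.25 ± 0.30, adjusted p = 0.344). The endosperm marker sum was 1991 to 2525 after removal of 0.5 of the spike and 4770 to 6814 in control grain, with 0 of 15 tested loci called, and its part was not tested. Both treatments were compared with the same control libraries.

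Between shaded grain and grain after removal of 0.5 of the spike, 0 of 35 loci were called in limma (8 had an unadjusted p under 0.05), against 0.190% of all tested loci (0.0306% higher and 0.159% lower). Without scaling 2 were called, both lower in shaded grain. The smallest adjusted p was 0.0939, for MSTRG.3852, with 3.32, 0.798 and 1.78 scaled FPKM in shaded grain, against 10.3, 7.15 and 12 after removal of 0.5 of the spike (log2 -1.93 ± 0.35). MSTRG.73927 (-1.61 ± 0.36, adjusted p = 0.139) came next, and 7 loci (background 9.87%) lay wholly lower and 6 (background 9.32%) wholly higher in shaded grain.

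**Figure D5:**
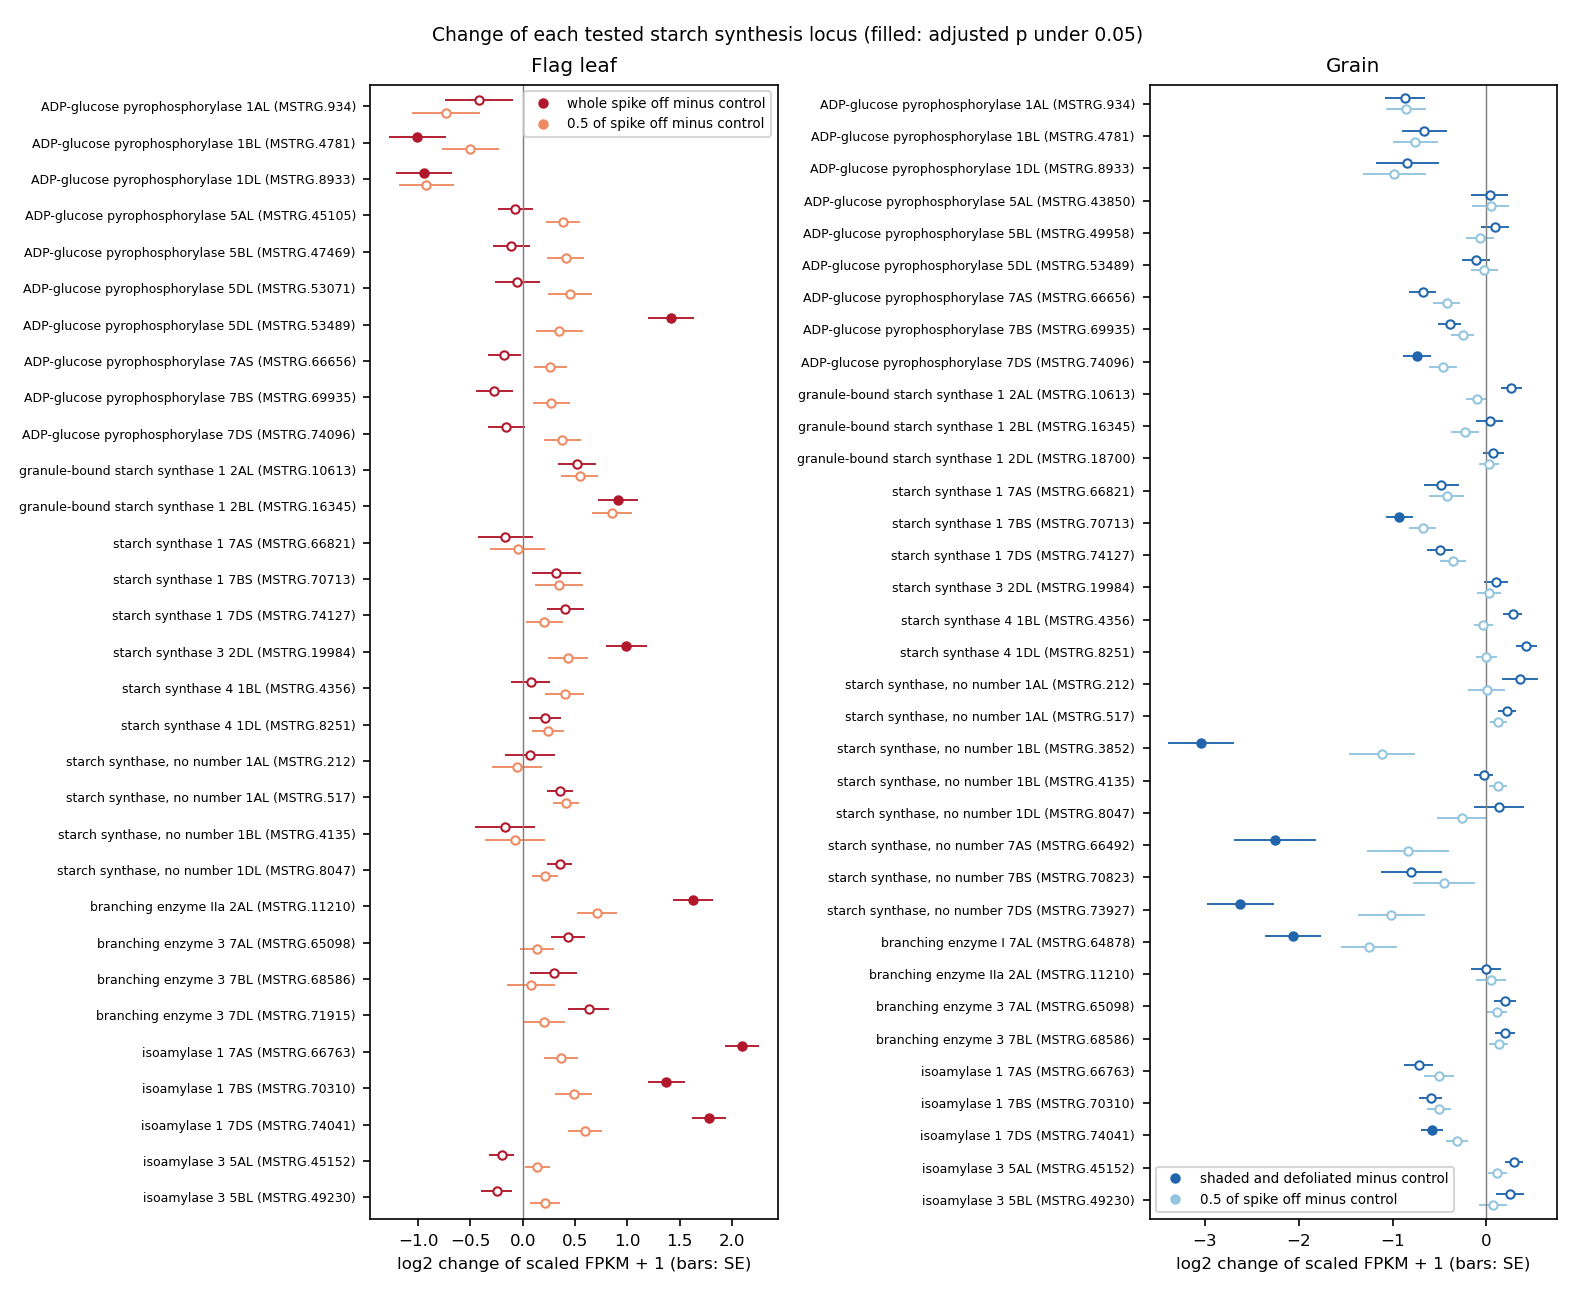
Log2 change of scaled FPKM + 1 with its SE for each tested locus, in flag leaf (left, 31 loci) and grain (right, 35 loci), for both treatments of each tissue against control, filled where the adjusted p was under 0.05. The 7AS and 7DS copies of isoamylase 1 and branching enzyme IIa carry the largest positive changes in leaf after whole removal, and the ADP-binding starch synthases and branching enzyme I the largest negative ones in shaded grain.

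Removal of 0.5 of the spike was the only treatment given to both tissues. The difference of its effect, leaf minus grain, was called for 0 of 25 loci in limma (11 had an unadjusted p under 0.05), against 0.0852% of all tested loci (0.0316% higher and 0.0537% lower). The median difference over the 25 loci was 0.40 on the log2 scale, with 23 of 25 above 0, against 0.00 over all tested loci. Without scaling the median over all tested loci was -0.43 and that over the 25 loci -0.00, with 12 above 0. The smallest adjusted p was 0.0806, for granule-bound starch synthase 1 MSTRG.16345 (1.10 ± 0.21), followed by isoamylase 1 MSTRG.74041 (0.94 ± 0.19, adjusted p = 0.103).

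The steps that neighbour starch synthesis were represented by 36 loci, among them 19 of sucrose synthase, 6 of 4-alpha-glucanotransferase, 4 of alpha-glucan phosphorylase, 3 of pullulanase and 3 of UTP-glucose-1-phosphate uridylyltransferase. After whole removal 6 of 18 tested were higher and 8 lower in leaf than in control, against 10.8% and 9.50% of all tested loci. Without control leaf libraries 2 and 3 the counts were 6 and 5 of 17. All 3 tested alpha-glucan phosphorylases, which release glucose-1-phosphate from glucans, and 3 of 4 tested 4-alpha-glucanotransferases, which transfer glucan chains, rose. MSTRG.18497 (4-alpha-glucanotransferase DPE2, 2BS) had 29.3, 28.3 and 28.6 scaled FPKM after whole removal, against 10.4, 7.92 and 4.38 in control (log2 1.86 ± 0.26). Alpha-glucan phosphorylase MSTRG.52693 (5DL) had 27.9, 30.1 and 23.6 after whole removal, against 11.3, 9.59 and 6.75 in control (1.48 ± 0.20). All 3 uridylyltransferases and 5 of 7 tested sucrose synthases fell. The uridylyltransferases are all described as form 3, chloroplastic, and were listed by description alone, so their part in starch synthesis was not tested. Among them MSTRG.458 (1AL) averaged 5.93 ± 1.52 after whole removal and 24.4 ± 2.80 in control.

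After removal of 0.5 of the spike 0 of 18 neighbouring loci were called in leaf and 0 of 23 in grain in limma (6 and 8 had an unadjusted p under 0.05), against 1.63% and 0.0284% of all tested loci. In shaded grain 0 of 23 were higher and 8 lower: 5 of 12 sucrose synthases, 2 of 6 4-alpha-glucanotransferases and 1 of 3 alpha-glucan phosphorylases, against 0.325% and 1.50% of all tested loci. Without shaded grain library 2 and control grain library 1 0 of the 23 were called in limma (13 had an unadjusted p under 0.05), and without scaling 3 were called, all lower. Leaving out 1 library at a time left 2 to 7 called, with 2 without shaded grain library 2 or 3. Sucrose synthase MSTRG.51537 (5DL) averaged 17.6 ± 3.35 in shaded grain and 34.5 ± 4.79 in control grain (log2 -0.94 ± 0.18, adjusted p = 0.0374). The most abundant sucrose synthase of grain, MSTRG.42256 (4DL), had 26.4, 48.4 and 43.4 in shaded grain, against 23.3, 22.8 and 31.9 in control grain (adjusted p = 0.294). Pullulanase MSTRG.66925 (7AS), another debranching enzyme, averaged 0.706 ± 0.124 in shaded grain and 3.43 ± 2.19 in control grain (log2 -1.27 ± 0.28, adjusted p = 0.0660).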

How the data were processed

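The deposited table gives FPKM per locus, computed by the authors from poly(A) RNA reads; the submitters' processing notes name HISAT, StringTie and edgeR without versions. The genome build, strandedness and read totals are not given in the sources used here, so the depth behind a value is unknown, and no counts were used. Assembled loci carry MSTRG identifiers, and 3 of the 41 loci (MSTRG.64878, MSTRG.212 and MSTRG.8047) join 2 gene names each. Only AGP-L has a subunit in its description.

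Log2(scaled FPKM + 1) was fitted with limma 3.58.1 in R 4.3.3, with a mean-variance trend, for the 9 leaf libraries, the 9 grain libraries, the 6 control libraries and the 12 libraries of the removal of 0.5 of the spike and control in both tissues. FPKM was scaled by the median ratio over tested loci above 0 in all libraries of a fit. The fits tested 48696, 45784, 49955 and 31683 loci, the last needing the minimum in 3 libraries of each tissue. P-values were adjusted by Benjamini-Hochberg over all loci of a fit.

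Loci named are the most abundant of each class per tissue, those called in any comparison, and the most abundant of each list of neighbouring steps. Other names, such as uncalled loci with the smallest adjusted p, were chosen after their values were seen. The members and lists were chosen with earlier results of these data known. Lists of phosphoglucomutase, glucose 6-phosphate translocator, water dikinase, protein targeting to starch and avenin-like loci matched 0 descriptions. Of the 41 loci, 2 matched a RefSeq symbol, and no sequence was used here.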

Additional observations from a re-analysis of the deposited data

How the results depend on the processing

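Of the calls above, 4 of 9 for leaf whole removal against control, 3 of 5 for whole removal against removal of 0.5 of the spike and 1 of 7 for shaded against control grain were kept under all 17 alternatives. Of 24 for control leaf against control grain, 10 were tested and kept under all 14 alternatives; 12 were not tested under all of them, of which 9 were kept wherever they were tested. The alternatives without shaded grain library 2 and control grain library 1, and without control leaf libraries 2 and 3, were chosen after seeing the data. Loci called for leaf whole removal numbered 4 without both control leaf libraries. For leaf removal of 0.5 of the spike 1 was called without scaling and 7 with sample weights. For whole removal against removal of 0.5 of the spike the counts were 9 with scaling over loci with a description and 16 with sample weights. For shaded grain they were 4 without scaling, 4 with a pseudocount of 0.1, 4 of 41 without a filter on low values, 3 with the replicate block and 2 without both libraries of high unnamed share. Shaded grain against grain after removal of 0.5 of the spike gave 2 without scaling. Leaf minus grain gave 6 with sample weights, where leaf library 2 after removal of 0.5 of the spike had a weight of 8.99. The cause was not tested. In that last contrast MSTRG.4356 turned to -0.0066 and MSTRG.69935 to -0.0014 without scaling. Leaving out 1 library at a time gave 7 to 10 loci for leaf whole removal, 0 to 1 for leaf removal of 0.5 of the spike (1 without whole removal library 1), 4 to 8 between the extents, 2 to 7 for shaded grain, 0 to 0 for grain removal of 0.5 of the spike, for shaded grain against it and for leaf minus grain, and 14 to 23 for control leaf against control grain.

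Same-numbered libraries did not deviate together (correlations -0.166 to 0.117 over 9 pairs in leaf and -0.368 to 0.0954 over 9 pairs in grain), so the numbers were not taken as pairs. With the replicate block the counts were 9, 0 and 6 in leaf, 3, 0 and 0 in grain, 26 between control tissues and 0 for leaf minus grain.

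Over all loci, leaf removal of 0.5 of the spike called 793, against 2046 without scaling and 5359 with sample weights. Leaf whole removal called 9885, against 3674 without control leaf libraries 2 and 3, and its split of 5258 higher and 4627 lower became 3621 and 7455 without scaling. Whole removal against removal of 0.5 of the spike called 8043, against 16810 with sample weights. Shaded grain called 834, against 510 without scaling, 388 with the block and 264 without shaded grain library 2 and control grain library 1. Grain removal of 0.5 of the spike called 13, against 108 without scaling, and shaded grain against it 87, against 386. Leaf minus grain called 27, against 4091 without scaling, 1487 with sample weights and 161 without a filter, and control leaf against control grain 35378, against 54288 without a filter. Without scaling the median log2 difference of all loci was -0.15 for leaf whole removal, -0.23 for leaf removal of 0.5 of the spike and -0.31 for shaded grain. The depth behind low values is unknown, and each group has 3 libraries.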
